A study of Mus musculus with 12 samples.

Results

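The messenger RNAs of inhibitory synapses and of the neurons that form them were followed in the ventral hippocampus of mice. The set held 26 genes, taken by symbol from the 54532 genes of the deposited count table. They were 3 genes of GABA synthesis and packaging (Gad1, Gad2, Slc32a1), 2 of uptake and breakdown (Slc6a11, Abat), 8 of interneuron identity (Pvalb, Calb2, Reln, Lhx6, Erbb4, Dlx1, Dlx6os1, Sox6), 2 of scaffold and adhesion (Gphn, Nlgn2), 2 GABA-B receptor subunits (Gabbr1, Gabbr2) and 9 GABA-A receptor subunits (Gabra2, Gabra3, Gabra4, Gabra5, Gabrb1, Gabrb2, Gabrg1, Gabrg3, Gabrd). All 26 passed the filter on low counts, and the lowest count of any of them in any library was 85. For the comparison of interneurons with receptors, the 11 genes of synthesis, packaging and identity are called the interneuron genes, and the 11 receptor members are called the receptor subunits.

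RNA sequencing was done on 12 libraries, 3 in each of 4 groups, all labelled wild type. The groups were mice exposed to CSDS (CSDS), mice with a knockdown of ACOT12 in the liver exposed to SSDS (SSDS-shACOT12), SSDS-exposed mice that had received AAV8-eGFP (SSDS-GFP), and controls with no treatment (Control). The labels spell out neither abbreviation; in stress research CSDS is commonly chronic social defeat stress, and SSDS a subthreshold form of it. The column names of both SSDS groups carry the letters TBG, which in liver work usually name a hepatocyte promoter. ACOT12 is an enzyme that splits acetyl-CoA, and as its knockdown was in the liver, hippocampal counts do not check it. SSDS-shACOT12 was compared with SSDS-GFP, CSDS with Control, and SSDS-GFP with Control, where the virus and SSDS differ together. The labels give no sex or age and do not state that each replicate is its own animal, and p-values therefore reflect only how far these libraries vary, which may be technical.

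GABA is made from glutamate by the GAD65 and GAD67 enzymes, loaded into vesicles and released by interneurons, a minority of hippocampal neurons that fall into classes marked by parvalbumin, calretinin, reelin and other proteins. It opens the chloride channel of GABA-A receptors, pentamers whose subunits set where the receptor sits and how long it conducts, and it acts more slowly through GABA-B receptors, which couple to G proteins. In the hippocampus this inhibition times the firing of pyramidal cells. Because the tissue was sequenced in bulk, fewer cells of a type and less RNA per cell cannot be told apart.

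The libraries held 14656714 to 17694570 counts each. SSDS-shACOT12 1, SSDS-shACOT12 3 and SSDS-GFP 3 stood apart on the first principal component of all tested genes, which held 34.9% of the variance. Their positions were 32.9, 55.9 and 31.6, and no other library was above 4.61. In the same 3 libraries genes of high GC content were relatively high: the Spearman correlation over genes between a library's deviation and transcript GC content was 0.63, 0.57 and 0.39, and lay between -0.55 and 0.02 in the other 9. SSDS-shACOT12 1 and SSDS-shACOT12 3 also had the lowest shares of mitochondrial counts, 3.23% and 4.31%, against 6.31% to 9.24% elsewhere. Excitatory neuron markers, of which all 8 were tested, summed to 5244 to 8133 CPM over all libraries. Of 8 dentate granule cell markers, all were tested, and their summed level was 603 to 796 CPM in CSDS, 443 to 702 CPM in SSDS-shACOT12, 661 to 726 CPM in SSDS-GFP and 832 to 936 CPM in Control. Of 8 striatal neuron markers 7 were tested, with summed levels between 109 and 151 CPM over all libraries, and Isl1 had no count in any library. Choroid plexus markers, of which 3 of 8 were tested, summed to 12.4 to 40.6 CPM in the libraries of the other 3 groups and to 37.5 to 555 CPM in Control, and Kcnj13 had no count in SSDS-shACOT12.

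Promoter sequences are shown for Pvalb and Slc32a1, interneuron genes that were higher in each CSDS library than in any Control library, and for Dlx6os1 and Gabrg1, the only 2 of the members with a sequence whose window held TAATTA, the core that homeodomain proteins such as Dlx1 and Lhx6 can bind. Each window runs from 250 bases before to 50 bases after the RefSeq start on GRCm38.p6, read 5′ to 3′ on the gene's strand, with TAATTA in capitals. Sequences were matched by symbol for 23 of the 26 members, and Gabrd, Calb2 and Abat were not matched. The windows are chr15:78206351-78206650 on the minus strand for Pvalb, chr2:158610508-158610807 on the plus strand for Slc32a1, chr6:6869484-6869783 on the minus strand for Dlx6os1 and chr5:70842568-70842867 on the minus strand for Gabrg1.
Pvalb: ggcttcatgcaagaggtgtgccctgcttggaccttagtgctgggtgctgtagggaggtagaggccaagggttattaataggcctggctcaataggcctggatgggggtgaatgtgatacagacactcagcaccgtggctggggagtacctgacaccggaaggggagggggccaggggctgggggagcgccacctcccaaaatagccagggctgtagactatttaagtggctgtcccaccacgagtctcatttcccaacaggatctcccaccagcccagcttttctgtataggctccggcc
Slc32a1: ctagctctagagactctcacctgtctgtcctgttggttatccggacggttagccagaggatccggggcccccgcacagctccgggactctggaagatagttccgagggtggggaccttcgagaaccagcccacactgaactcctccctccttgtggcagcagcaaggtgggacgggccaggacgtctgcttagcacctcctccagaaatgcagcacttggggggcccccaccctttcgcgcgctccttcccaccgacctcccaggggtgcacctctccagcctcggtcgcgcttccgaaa
Dlx6os1: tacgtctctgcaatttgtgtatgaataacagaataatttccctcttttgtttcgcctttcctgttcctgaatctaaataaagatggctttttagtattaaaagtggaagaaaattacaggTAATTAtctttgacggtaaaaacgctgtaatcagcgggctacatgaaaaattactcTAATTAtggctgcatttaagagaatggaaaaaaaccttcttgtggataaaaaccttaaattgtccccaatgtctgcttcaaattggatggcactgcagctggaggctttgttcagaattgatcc
Gabrg1: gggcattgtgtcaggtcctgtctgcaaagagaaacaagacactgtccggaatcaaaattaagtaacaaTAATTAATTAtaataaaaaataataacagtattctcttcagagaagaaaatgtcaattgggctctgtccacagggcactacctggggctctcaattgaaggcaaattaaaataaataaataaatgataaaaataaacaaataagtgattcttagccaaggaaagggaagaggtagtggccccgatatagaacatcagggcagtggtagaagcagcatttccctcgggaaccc
TAATTA reads the same on both strands and was found in 2 of 23 member promoters (8.7%), against 5.29% of all 32851 promoters of this length. Dlx6os1 held 2 separate matches, and the 2 matches of Gabrg1 overlap. Both windows were poor in GC, at 35.7% for Dlx6os1 and 38.3% for Gabrg1, against 58.3% for Pvalb and 63.3% for Slc32a1. TATAAA, searched on both strands, was found in the promoters of Gad1, Gabra3 and Gabrb2 (13% of the members and 13.6% of all promoters). TGACGTCA, the full cyclic AMP response element, was found in 0 of 23 (1.79% of all promoters). None of these matches is a measured binding site.

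Levels between genes were compared per length, as FPKM averaged over the 12 libraries. The metabotropic receptor subunit Gabbr1 was the highest of the 26 at 92.0 ± 6.69 FPKM (SD, n = 12), followed by Gabra5, the GABA-A subunit enriched in hippocampus, at 77.6 ± 19.3 FPKM. Their ranges overlapped, with Gabra5 at 43.2 to 100.1 FPKM and Gabbr1 at 84.6 to 105 FPKM. Pvalb (47.2 ± 9.12 FPKM), the calcium-binding protein of fast-spiking cells, Nlgn2 (44.2 ± 5.54 FPKM), and Gabbr2 (42.4 ± 3.80 FPKM) came next and did not separate from each other beyond their spread. Gad1 (33.9 ± 3.84 FPKM) followed and was below Gabbr2 in each of the 12 libraries. Calb2, Abat, Slc6a11, Slc32a1, Gphn, Gabra4, Gad2, Gabra3, Gabra2, Gabrb1 and Gabrd averaged between 29.1 and 10.3 FPKM. At the low end stood Gabrb2 at 8.11 FPKM, Dlx1 at 6.66 FPKM, Lhx6 at 3.51 FPKM, Erbb4 at 2.91 FPKM, Gabrg1 at 2.14 FPKM, Dlx6os1 at 1.98 FPKM, Gabrg3 at 1.54 FPKM, Reln at 1.42 FPKM and Sox6 at 0.80 FPKM. Calb2 had the widest range of all members, from 5.99 to 82.0 FPKM.

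**Figure D1:**
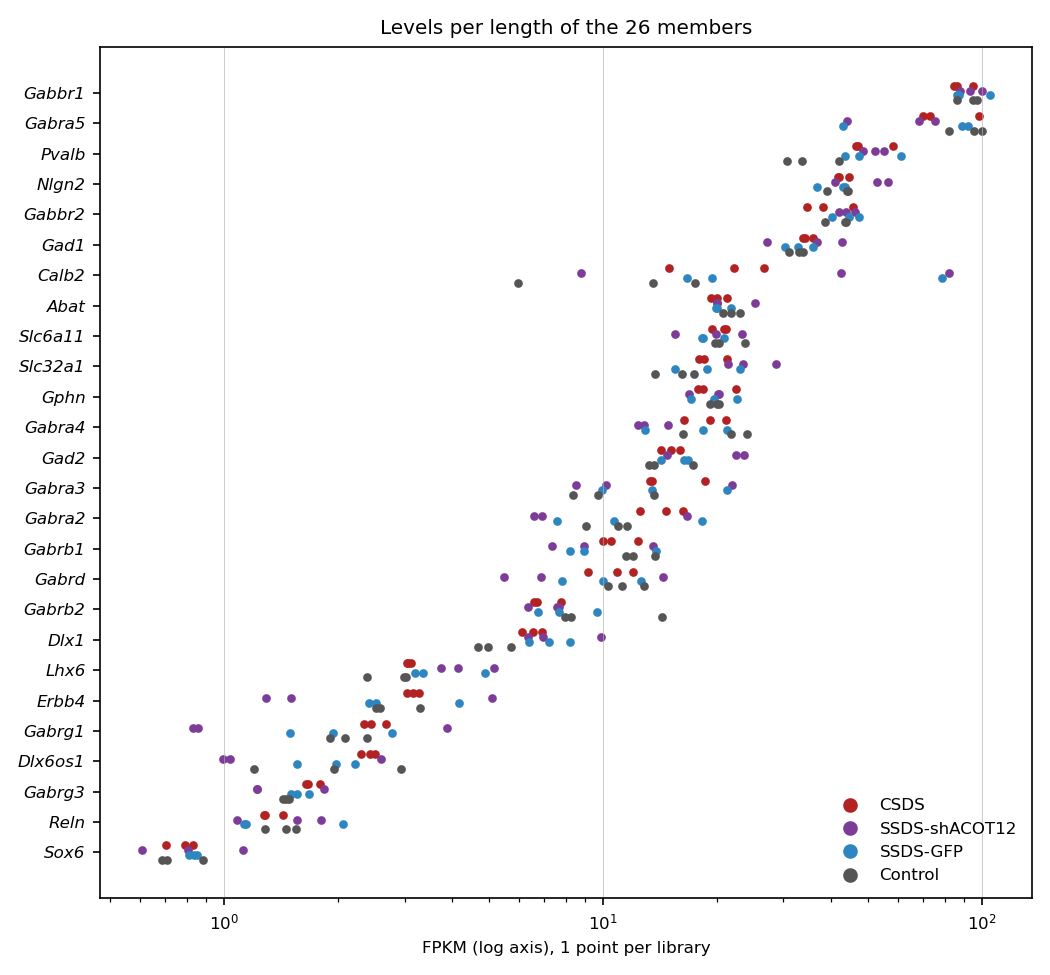
FPKM of each member in each library on a log axis, 1 point per library, with genes ordered by their mean over the 12 libraries and colours for the 4 groups. Gabbr1 is highest at 92.0 FPKM and Sox6 lowest at 0.80 FPKM, and Calb2 spreads from 5.99 to 82.0 FPKM.

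No member passed the threshold of adjusted p under 0.05 (edgeR quasi-likelihood test, Benjamini-Hochberg over 16915 tested genes) in any comparison. In CSDS against Control 0 of 26 were called, against 0% of all tested genes, and 2 had an unadjusted p under 0.05 (5.87% of all): Pvalb was higher, as were 2.86% of all genes, and Gabrb2 was lower, as were 3.01%. In SSDS-shACOT12 against SSDS-GFP 0 were called, against 0% of all genes, and 2 had an unadjusted p under 0.05 (4.53% of all). Both, Gad2 and Slc32a1, were higher, as were 1.84% of all genes, and 0 members were lower at that p, against 2.68%. In SSDS-GFP against Control 0 were called, against 0.0946% of all genes (0.0769% higher and 0.0177% lower), and 4 had an unadjusted p under 0.05 (15.2% of all). All 4, Pvalb, Dlx1, Lhx6 and Calb2, were higher, as were 8.92% of all genes, and 0 members were lower at that p, against 6.23%. In the test of any difference among the 4 groups 0 were called, against 0.0887% of all genes, and 6 had an unadjusted p under 0.05 (14.4% of all): Lhx6, Slc32a1, Pvalb, Dlx1, Gabra4 and Gad2. DESeq2 called 0 members in each of the 4 tests, while of all genes it called 6 in CSDS against Control, 0 in SSDS-shACOT12 against SSDS-GFP, 527 in SSDS-GFP against Control and 755 in the 4-group test. Its counts of members at an unadjusted p under 0.05 were the same as those of edgeR, from 2 to 6. Between same-numbered SSDS libraries, which were taken as pairs, Gad2, Slc32a1 and Nlgn2 were higher in SSDS-shACOT12 in 3 of 3 pairs, as were 15% of all genes, and Gabra2 was lower in 3 of 3, as were 17.6% of all genes. The spread within groups was wider in the SSDS groups: the median over members of the SD of log2 CPM was 0.10 in CSDS, 0.32 in SSDS-shACOT12, 0.25 in SSDS-GFP and 0.15 in Control.

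**Figure D2:**
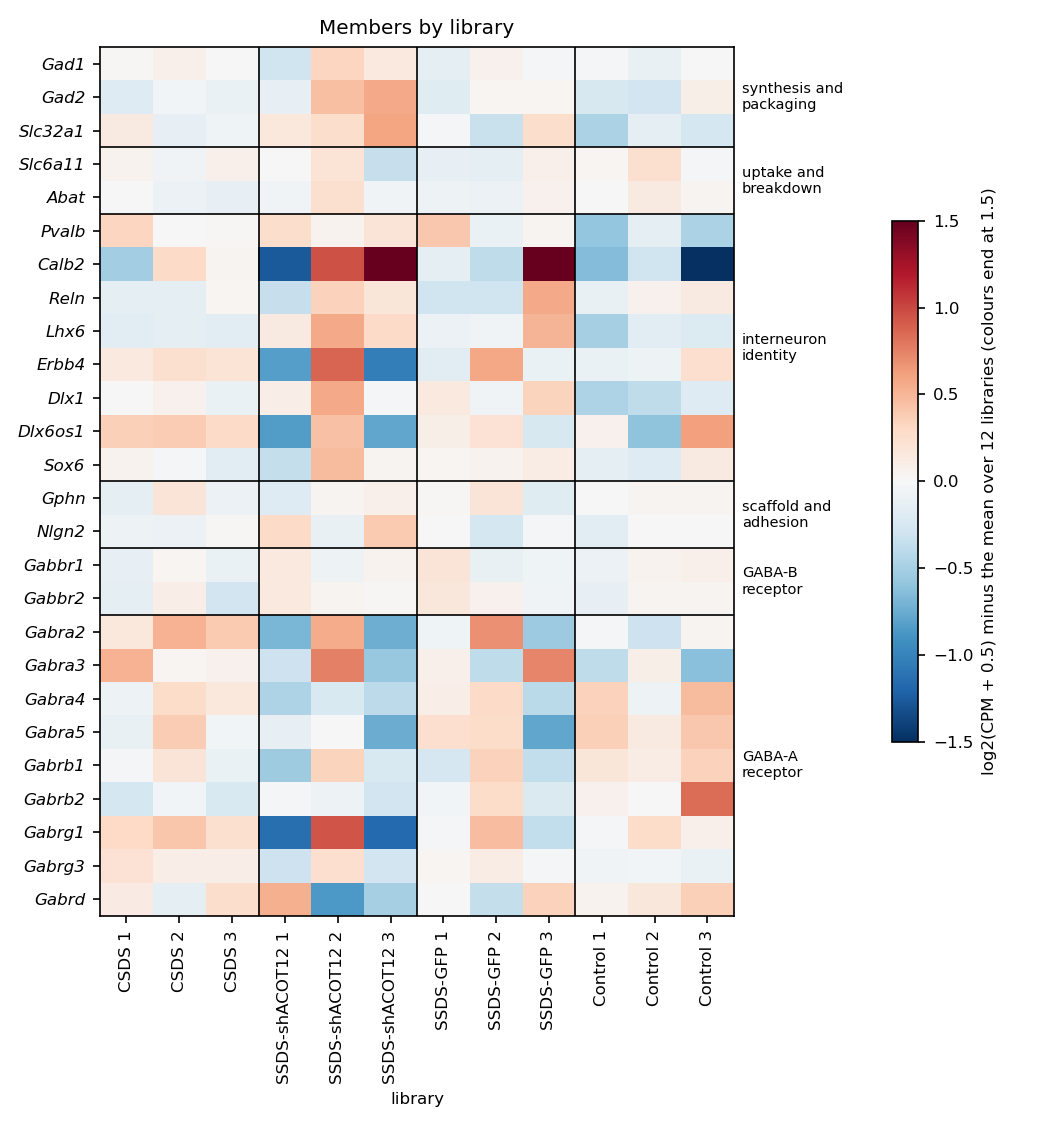
Each cell is log2(CPM + 0.5) of a member in a library minus that member's mean over the 12 libraries, with colours ending at 1.5; libraries run across by group and genes down by role. SSDS-shACOT12 2 is the highest library for 9 members and SSDS-shACOT12 1 the lowest for 8.

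The genes of GABA synthesis and packaging were at higher means in SSDS-shACOT12 than in SSDS-GFP, and none of the 3 passed the test. Gad1, which encodes GAD67, the enzyme behind most of the GABA of the cell, had 211, 327 and 289 CPM in SSDS-shACOT12, 235, 273 and 255 CPM in SSDS-GFP, 263, 274 and 260.1 CPM in CSDS and 257, 240.4 and 259 CPM in Control. The SSDS-shACOT12 libraries lay on both sides of all others, while each CSDS library was above every Control library by a small margin (log2 fold change 0.07 ± 0.14 SE, edgeR adjusted p = 0.978). Gad2, which encodes the synaptic GAD65, had 88.4, 132 and 143 CPM in SSDS-shACOT12 against 84.8, 98.4 and 98.5 CPM in SSDS-GFP, and 84.4, 93.8 and 89.9 CPM in CSDS against 81.8, 78.9 and 102 CPM in Control. SSDS-shACOT12 2 and 3 were above the other 10 libraries and SSDS-shACOT12 1 was among them, so the groups overlapped (log2 fold change 0.37 ± 0.17 SE, edgeR unadjusted p = 0.049, adjusted p = 0.803).

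Slc32a1, the vesicular transporter that loads GABA into synaptic vesicles, had 60.9, 65.6 and 82.6 CPM in SSDS-shACOT12 against 53.5, 43.3 and 65.6 CPM in SSDS-GFP, and 59.9, 50.1 and 52.3 CPM in CSDS against 39.3, 49.3 and 45.4 CPM in Control. The CSDS libraries were all above the Control libraries, and the SSDS groups overlapped through SSDS-GFP 3, although SSDS-shACOT12 was the higher library of each same-numbered pair. Its log2 fold change was 0.36 ± 0.17 SE in SSDS-shACOT12 against SSDS-GFP (edgeR unadjusted p = 0.0496, adjusted p = 0.803) and 0.28 ± 0.17 SE in CSDS against Control (adjusted p = 0.889). The values of Gad2 and Slc32a1 moved with the library that was left out: without SSDS-shACOT12 3 their log2 fold changes against SSDS-GFP were 0.24 and 0.23. With each library's trend with GC content removed they were 0.52 and 0.21.

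Parvalbumin was higher in CSDS, SSDS-shACOT12 and SSDS-GFP than in Control. CSDS and SSDS-GFP did not pass the test against Control, and SSDS-shACOT12 was not compared with Control in a test of its own. Pvalb (chr15:78191114-78206400) had 61.0, 48.7 and 49.6 CPM in CSDS, 58.6, 50.6 and 56.1 CPM in SSDS-shACOT12, 64.8, 45.4 and 50.3 CPM in SSDS-GFP, and 32.5, 44.3 and 35.0 CPM in Control. Every library of the other groups was above all 3 Control libraries, the nearest pair being 45.4 CPM in SSDS-GFP 2 and 44.3 CPM in Control 2. Its log2 fold change was 0.51 ± 0.16 SE in CSDS against Control (edgeR unadjusted p = 0.00809, adjusted p = 0.849) and 0.52 ± 0.16 SE in SSDS-GFP against Control (unadjusted p = 0.00722, adjusted p = 0.174), which share the Control libraries. The summed dentate granule markers separated the same libraries the other way, with at most 796 CPM outside Control and at least 832 CPM in Control, and their part in the Pvalb values was not tested. SSDS-shACOT12 and SSDS-GFP overlapped, at a log2 fold change of 0.04 ± 0.16 SE (edgeR adjusted p = 0.954). Over all alternatives and left-out libraries its log2 fold change stayed between 0.39 and 0.66 for CSDS and between 0.31 and 0.66 for SSDS-GFP, and the adjusted p did not go below 0.0909 for CSDS or 0.0726 for SSDS-GFP.

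The 2 transcription factors of interneurons born in the ganglionic eminences had the same order of group means. Lhx6, which is needed for parvalbumin and somatostatin cells, had 14.8, 15 and 14.8 CPM in CSDS, 18.4, 24.9 and 20.4 CPM in SSDS-shACOT12, 15.6, 16.1 and 24 CPM in SSDS-GFP, and 11.7, 14.7 and 14.4 CPM in Control. The CSDS libraries lay above Control by as little as the difference between 14.8 and 14.7 CPM, and SSDS-GFP lay above Control without overlap (log2 fold change 0.45 ± 0.18 SE, edgeR unadjusted p = 0.0276, adjusted p = 0.269). Without SSDS-GFP 3 that log2 fold change was 0.22.

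Dlx1, a homeobox factor of migrating and mature interneurons, had 35.6, 37.4 and 33.3 CPM in CSDS, 38.4, 53.4 and 35.2 CPM in SSDS-shACOT12, 39.4, 34.4 and 45.0 CPM in SSDS-GFP, and 25.8, 27.2 and 31.0 CPM in Control. As with Pvalb, no library of the other groups reached down into the Control range. The log2 fold change was 0.34 ± 0.16 SE in CSDS against Control (edgeR adjusted p = 0.860) and 0.50 ± 0.16 SE in SSDS-GFP against Control (unadjusted p = 0.00889, adjusted p = 0.178). Dlx1 shares 5869 bases with Dlx1as on the other strand, which had at most 44 counts, and the kit name does not mark strand.

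Calb2, which encodes calretinin, was the most uneven member. It had 15.5, 74.3 and 147 CPM in SSDS-shACOT12 against 34.4, 29.0 and 139 CPM in SSDS-GFP, and 26.3, 46.3 and 39.1 CPM in CSDS against 24.1, 30.9 and 10.5 CPM in Control. The libraries numbered 3 were the highest of both SSDS groups and the lowest of Control, and the highest library was 14 times the lowest. In SSDS-GFP against Control the log2 fold change was 1.63 ± 0.71 SE (edgeR unadjusted p = 0.0389, adjusted p = 0.302), and without SSDS-GFP 3 it was 0.54 (adjusted p = 0.782).

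The other 4 identity genes showed no separation of the groups. Erbb4, the neuregulin receptor of interneurons, had 19.0, 63.2 and 16.4 CPM in SSDS-shACOT12 against 30.3, 51.5 and 31.8 CPM in SSDS-GFP. SSDS-shACOT12 2 was the highest of all 12 libraries and the other 2 libraries of that group the lowest, and CSDS (37.9 to 40.5 CPM) and Control (31.8 to 40.7 CPM) lay between. Dlx6os1 (chr6:6820189-6871592), the noncoding RNA also called Evf2 that is antisense to Dlx6, showed the same split within SSDS-shACOT12, with 5.26, 13.5 and 5.51 CPM. SSDS-GFP had 8.23 to 11.5 CPM, CSDS 12.0 to 12.9 CPM and Control 10.3, 6.29 and 15.2 CPM, so that Control 3 was the highest library. The gene body of Dlx6os1 shares 5235 bases with that of Dlx6, which had at most 104 counts. How many reads fall on both genes was not measured.

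Reln, which encodes the secreted protein reelin, averaged 31.8 ± 2.23 CPM in CSDS, 35.8 ± 8.59 CPM in SSDS-shACOT12, 34.8 ± 13.2 CPM in SSDS-GFP and 34.3 ± 3.00 CPM in Control (SD, n = 3 each). Sox6, a factor that acts after Lhx6 in the same lineage, averaged 11.6 ± 0.93 CPM in CSDS, 12.7 ± 3.79 CPM in SSDS-shACOT12, 12.5 ± 0.35 CPM in SSDS-GFP and 11.4 ± 1.54 CPM in Control. The groups overlapped for both genes in every comparison, and their edgeR adjusted p ranged from 0.796 to 0.997.

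**Figure D3:**
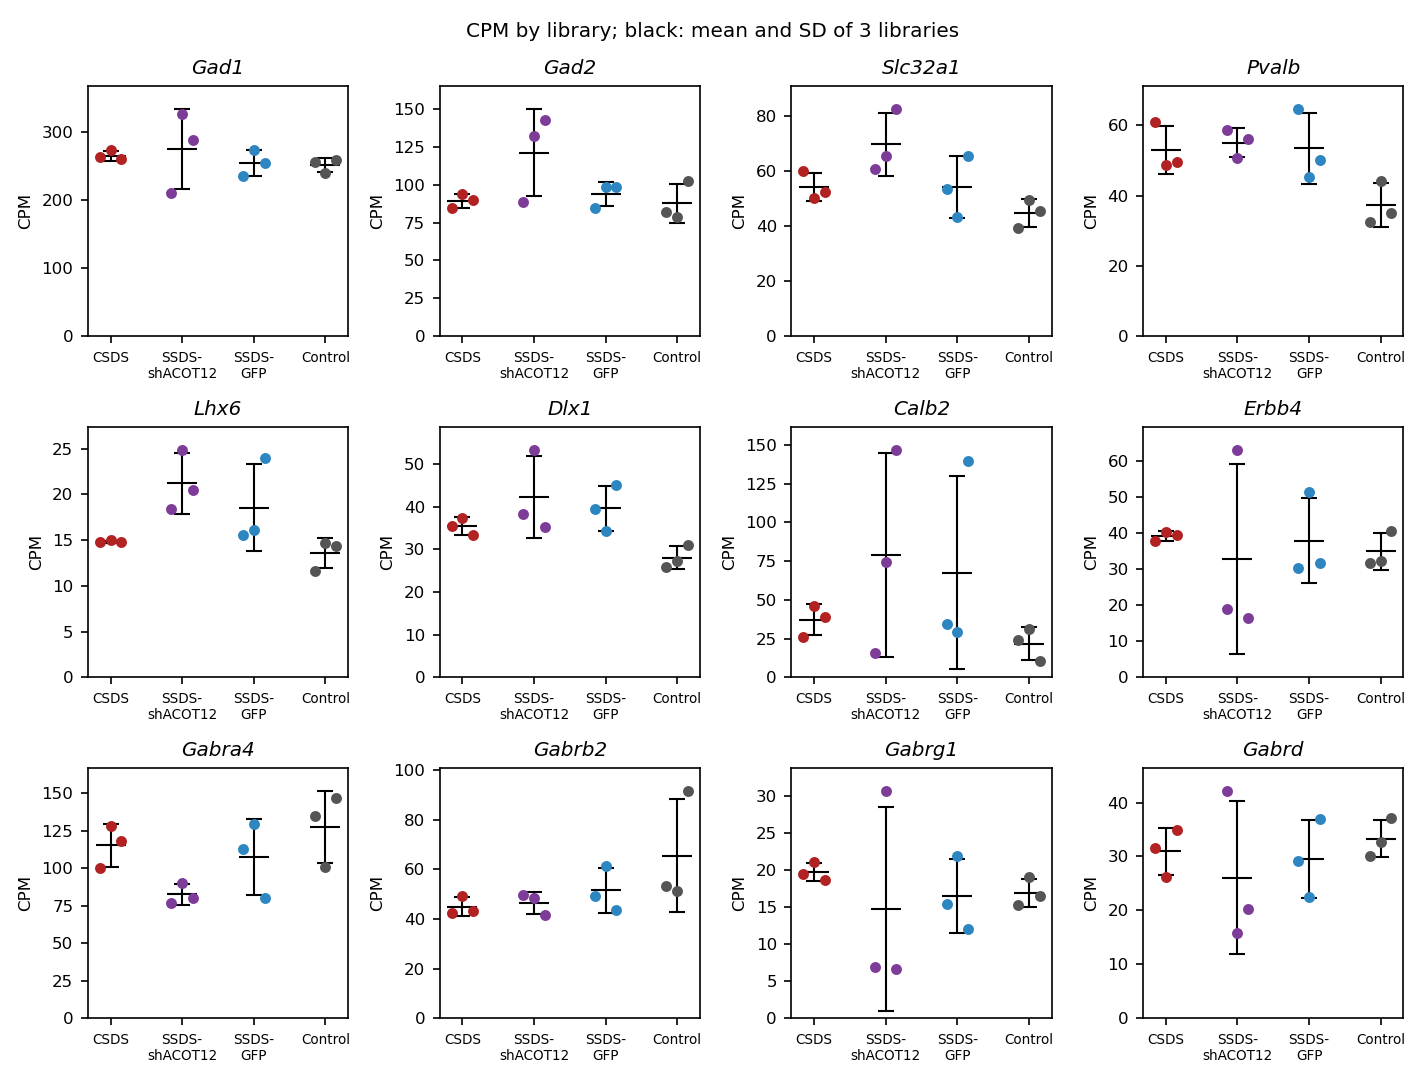
CPM of 12 members by group, 1 point per library with a bar at the mean and whiskers of 1 SD over 3 libraries; each panel has its own axis from 0. For Pvalb and Dlx1 the Control points, at most 44.3 and 31.0 CPM, lie below all others, while Erbb4 and Gabrg1 split SSDS-shACOT12 into 1 high and 2 low libraries.

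Uptake, breakdown and scaffold genes differed little between CSDS and Control. Slc6a11, the GABA transporter GAT3 of astrocytes, averaged 104 ± 5.23 CPM in CSDS and 109 ± 11.0 CPM in Control (SD, n = 3 each), with a log2 fold change of -0.06 ± 0.14 SE (edgeR adjusted p = 0.986). Abat, the transaminase that degrades GABA, averaged 157 ± 7.70 CPM in CSDS and 171 ± 8.31 CPM in Control, at a log2 fold change of -0.12 ± 0.12 SE (edgeR adjusted p = 0.931). Gphn, the gephyrin scaffold that anchors GABA-A and glycine receptors, had log2 fold changes between -0.04 and -0.0049 in the 3 comparisons.

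Nlgn2, the neuroligin of inhibitory synapses, was the member outside the interneuron and receptor genes with the largest log2 fold change. It had 313, 238 and 337 CPM in SSDS-shACOT12 against 256, 213 and 255 CPM in SSDS-GFP, with a log2 fold change of 0.29 ± 0.14 SE (edgeR unadjusted p = 0.0534, adjusted p = 0.803). SSDS-shACOT12 1 and 3 were the highest of all libraries, and SSDS-shACOT12 2 lay within the SSDS-GFP range. Its longest transcript has 60.7% GC, the second highest of the members after Slc32a1 at 61.9%. SSDS-shACOT12 1 and 3 are among the libraries in which genes of high GC content were relatively high. Another of those libraries, SSDS-GFP 3, had 255 CPM of Nlgn2, against 258 CPM in Control 2 and in Control 3. The part of GC content in the Nlgn2 values was not tested.

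The GABA-B receptor, an obligate dimer of Gabbr1 and Gabbr2, was at similar levels in all groups. Gabbr1 had 662, 737 and 675 CPM in CSDS, 795, 683 and 745 CPM in SSDS-shACOT12, 827, 669 and 689 CPM in SSDS-GFP, and 679.8, 748 and 758 CPM in Control. The groups overlapped in every comparison, and the log2 fold changes lay between -0.08 and 0.03. Gabbr2 averaged 266 ± 36.9 CPM in CSDS, 299 ± 14.3 CPM in SSDS-shACOT12, 298 ± 23.2 CPM in SSDS-GFP and 283 ± 17.9 CPM in Control (SD, n = 3 each), with log2 fold changes between -0.09 and 0.07.

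All 9 GABA-A subunits had negative log2 fold changes in SSDS-shACOT12 against SSDS-GFP, from -0.04 for Gabrb1 to -0.38 for Gabra4, and none passed the test. Of all tested genes 48% were lower in that comparison. Gabra4, an alpha subunit of synaptic and extrasynaptic receptors, had 77.0, 90.5 and 80.5 CPM in SSDS-shACOT12 against 113, 129 and 80.2 CPM in SSDS-GFP, and 100.1, 128 and 118 CPM in CSDS against 135, 101 and 147 CPM in Control. The SSDS-shACOT12 libraries were low, and SSDS-GFP 3 was as low as they were (log2 fold change -0.38 ± 0.19 SE, edgeR unadjusted p = 0.0616, adjusted p = 0.803). In the 4-group test its unadjusted p was 0.031 and its adjusted p 0.302.

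Gabrb2, the beta subunit common in synaptic receptors, had the lowest p of the receptor members in CSDS against Control. It had 42.2, 49.4 and 43.2 CPM in CSDS and 53.4, 51.3 and 91.6 CPM in Control, beside 49.7, 48.4 and 41.5 CPM in SSDS-shACOT12 and 49.4, 61.5 and 43.7 CPM in SSDS-GFP. CSDS lay below Control without overlap, and Control 3 stood far above every other library. The log2 fold change was -0.54 ± 0.21 SE (edgeR unadjusted p = 0.0206, adjusted p = 0.849), and without Control 3 it was -0.21 (adjusted p = 1.00).

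Gabrg1, a gamma subunit, split the SSDS-shACOT12 group as Erbb4 did. It had 6.87, 30.7 and 6.69 CPM in SSDS-shACOT12 against 15.4, 21.9 and 12.0 CPM in SSDS-GFP, while CSDS had 18.7 to 21.1 CPM and Control 15.3 to 19.0 CPM. SSDS-shACOT12 2 was the highest and the other 2 libraries of the group the lowest of all 12. Its longest transcript has 35.3% GC, the lowest of the members, and that of Erbb4 has 40.6%. SSDS-shACOT12 1 and 3 were low in genes of low GC content, and the part of GC content in these values was not tested. Without SSDS-shACOT12 2 both genes passed the test in SSDS-shACOT12 against SSDS-GFP, with log2 fold changes of -1.29 for Gabrg1 (edgeR adjusted p = 0.0145) and -1.11 for Erbb4 (adjusted p = 0.0191). That fit called 985 of 17292 tested genes in this comparison.

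Gabrd, the delta subunit of extrasynaptic receptors that is prominent in dentate granule cells, did not follow that split. It had 42.2, 15.8 and 20.3 CPM in SSDS-shACOT12 against 29.2, 22.4 and 36.9 CPM in SSDS-GFP, and 31.6, 26.2 and 35.0 CPM in CSDS against 30.2, 32.7 and 37.1 CPM in Control. SSDS-shACOT12 held both the highest and the 2 lowest libraries. The mean deviation of the 8 dentate granule markers on the log2 scale was 0.12 in SSDS-shACOT12 1, -1.0 in SSDS-shACOT12 2 and -0.95 in SSDS-shACOT12 3, the last 2 being the lowest of the 12 libraries, and their part in the Gabrd values was not tested. No comparison passed the test, with edgeR adjusted p between 0.820 and 0.988.

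Among the remaining subunits, Gabra2 was higher in every CSDS library (96.4, 125 and 113 CPM) than in any Control library (85.2, 69.8 and 88.7 CPM), with a log2 fold change of 0.46 ± 0.34 SE (edgeR adjusted p = 0.913). Gabrg3 was likewise above Control without overlap in CSDS (19.8 to 21.6 CPM) and in SSDS-GFP (18.3 to 20.0 CPM), with Control at 17.2 to 17.9 CPM, and neither comparison passed the test (adjusted p = 0.912 for CSDS and 0.770 for SSDS-GFP). Gabra3 averaged 59.7 ± 11.9 CPM in CSDS and 42.0 ± 11.1 CPM in Control, and Gabrb1 153 ± 16.4 CPM in CSDS and 174 ± 14.9 CPM in Control (SD, n = 3 each), with overlap of the groups. Gabra5, which forms much of the tonic hippocampal receptor, averaged 241 ± 45.9 CPM in CSDS against 278 ± 27.5 CPM in Control, and 189 ± 47.8 CPM in SSDS-shACOT12 against 224 ± 80.8 CPM in SSDS-GFP. The libraries SSDS-shACOT12 3 at 135 CPM and SSDS-GFP 3 at 131 CPM were its lowest. Gabra4 overlaps Gabrb1 head to head over 196 bases.

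**Figure D4:**
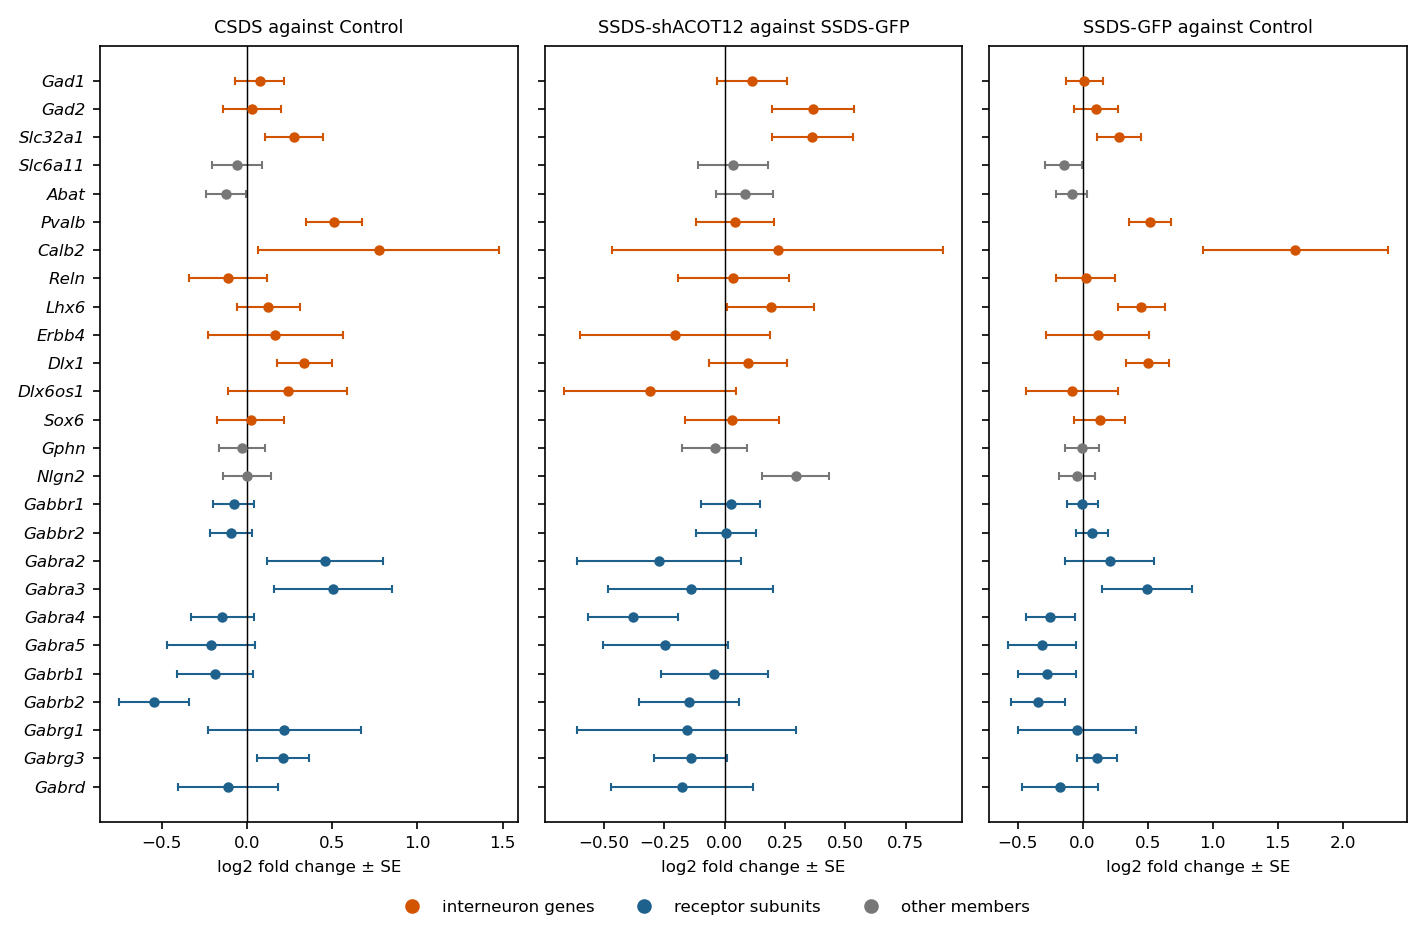
Log2 fold change and standard error of the 26 members from the edgeR fit in the 3 comparisons, with colours for interneuron genes, receptor subunits and other members; each panel has its own horizontal scale. In SSDS-shACOT12 against SSDS-GFP the 9 GABA-A subunits lie between -0.38 and -0.04, and none of the points in any panel passed the test.

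Set side by side, most interneuron genes were higher in each comparison, and the 2 comparisons with Control share its libraries. Receptor subunits were lower for 9 of 11 in SSDS-shACOT12 against SSDS-GFP. They were lower for 7 of 11 in CSDS and in SSDS-GFP against Control, where 49.7% and 49.2% of all genes were lower. These counts are a description and the 2 lists were not tested against each other. In CSDS against Control 10 of 11 interneuron genes were higher, with a median log2 fold change of 0.17, and 4 of 11 receptor subunits, with a median of -0.09, while 50.3% of all tested genes were higher, with a median of 0.001. In SSDS-shACOT12 against SSDS-GFP 9 of 11 interneuron genes were higher, with a median of 0.09, and 2 of 11 receptor subunits, with a median of -0.15, against 52% and a median of 0.01 over all genes. In SSDS-GFP against Control 10 of 11 interneuron genes were higher, with a median of 0.13, and 4 of 11 receptor subunits, with a median of -0.04, against 50.8% and a median of 0.006 over all genes. With single libraries left out, the interneuron median in CSDS against Control lay between 0.10 (without Control 1) and 0.30 (without Control 3), and the receptor median was -0.02 without Control 3. The interneuron median in SSDS-GFP against Control lay between 0.07 (without Control 2) and 0.28 (without Control 3), and the receptor median there was 0.04 without SSDS-GFP 3 and -0.19 without SSDS-GFP 2. Without all 3 libraries that stood apart, SSDS-shACOT12 2 alone was set against SSDS-GFP, and the interneuron median was 0.54 (10 of 11 higher) and the receptor median -0.07 (5 of 11 higher); with the GC trend removed in all libraries these medians were 0.10 and -0.07.

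Groups that did not overlap were counted over all 26 members. In CSDS against Control 7 members were higher without overlap (Gad1, Slc32a1, Pvalb, Lhx6, Dlx1, Gabra2 and Gabrg3), where 10.2% of all tested genes were, and 1 was lower (Gabrb2), where 10.1% of all genes were. In SSDS-GFP against Control 4 were higher without overlap (Pvalb, Lhx6, Dlx1 and Gabrg3), where 12.5% of all genes were, and 0 were lower, where 11.4% were. In SSDS-shACOT12 against SSDS-GFP 0 members were higher or lower without overlap, where 2.23% of all genes were higher and 2.58% lower. The first 2 of these counts use the same Control libraries.

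Library by library, a score was taken as the mean over the 11 genes of log2(CPM + 0.5) minus each gene's mean over the 12 libraries. The interneuron score was 0.0003, 0.05 and -0.001 in CSDS, -0.31, 0.49 and 0.19 in SSDS-shACOT12, -0.04, -0.02 and 0.30 in SSDS-GFP, and -0.29, -0.21 and -0.16 in Control. Control libraries were thus below all CSDS and SSDS-GFP libraries, and SSDS-shACOT12 1 was the lowest of all. The dentate granule marker deviation set the same Control libraries apart the other way, at 0.50, 0.49 and 0.61 against at most 0.19 elsewhere, and choroid plexus markers reached 555 CPM in Control against at most 40.6 CPM elsewhere. Their part in the interneuron score was not tested. The receptor score was 0.05, 0.17 and 0.04 in CSDS, -0.25, 0.15 and -0.44 in SSDS-shACOT12, 0.04, 0.15 and -0.16 in SSDS-GFP, and 0.03, 0.04 and 0.17 in Control. Its mean was 0.089 in CSDS and 0.081 in Control. It was below 0 in 3 libraries, the same 3 that stood apart on the first principal component.

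The interneuron score minus the receptor score averaged -0.07 ± 0.04 in CSDS, 0.30 ± 0.35 in SSDS-shACOT12, 0.07 ± 0.34 in SSDS-GFP and -0.30 ± 0.04 in Control (SD, n = 3 each). It was positive in SSDS-shACOT12 2 (0.34), SSDS-shACOT12 3 (0.64) and SSDS-GFP 3 (0.46) and negative in the other 9 libraries. The interneuron genes had a median transcript GC content of 49.3%, near the 49.5% of all tested genes, and the receptor subunits one of 43.1%. With the GC trend of each library removed, the receptor score was -0.02 in SSDS-shACOT12 1, -0.19 in SSDS-shACOT12 3 and -0.06 in SSDS-GFP 3, and the interneuron scores of those libraries were -0.27, 0.23 and 0.31. In Control the interneuron score after that step was -0.31, -0.22 and -0.16, and in CSDS it was -0.01, 0.05 and -0.02. The part of GC content in these scores was not tested.

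**Figure D5:**
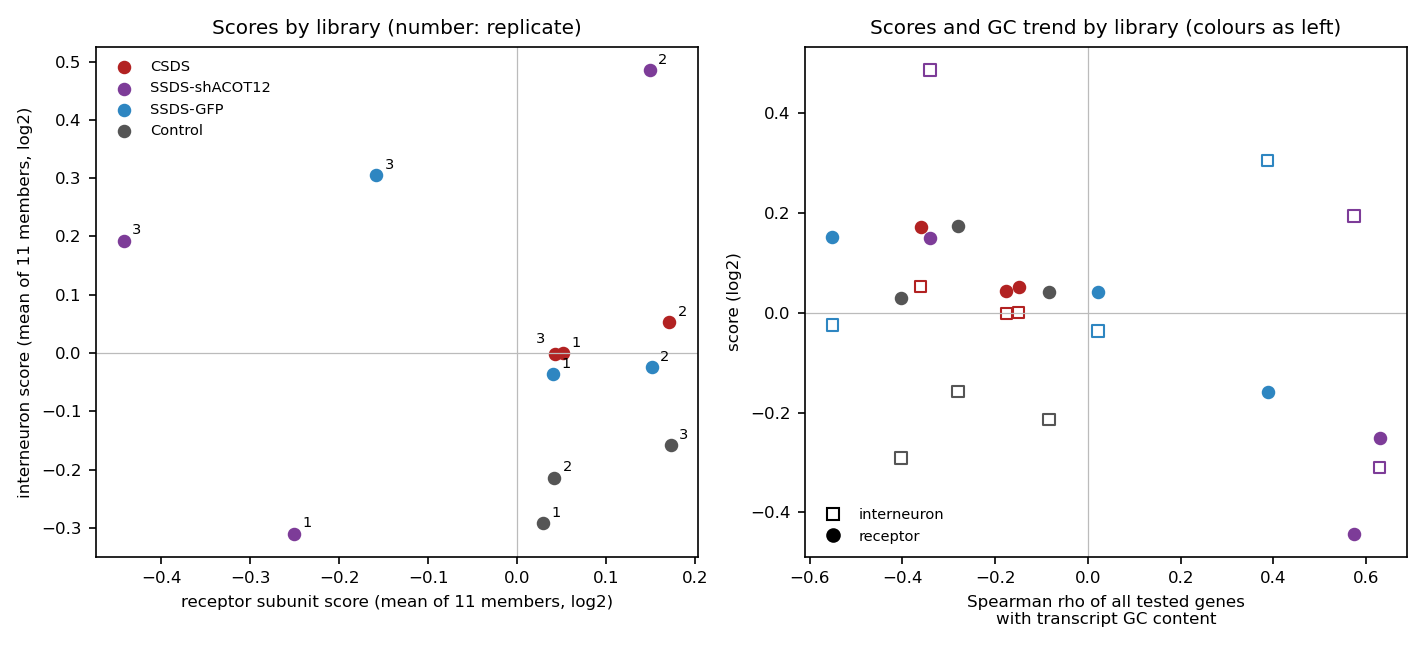
Left, interneuron score against receptor score for the 12 libraries, each score a mean over 11 members on a log2 scale; right, both scores against the Spearman correlation of each library with transcript GC content. The 3 libraries with receptor scores below 0 lie at GC correlations of 0.39 to 0.63, and the Control interneuron scores lie between -0.29 and -0.16.

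The rest of the pathway was taken from a list of 56 further GABA genes, of which 55 were matched by symbol and 49 were tested. By edgeR 0 were called in each of the 3 comparisons and in the 4-group test. At an unadjusted p under 0.05 there were 9 in CSDS against Control, where 5.87% of all tested genes were. There were 2 in SSDS-shACOT12 against SSDS-GFP (4.53% of all), 11 in SSDS-GFP against Control (15.2% of all) and 10 in the 4-group test (14.4% of all). DESeq2 called 0 in CSDS against Control and 0 in SSDS-shACOT12 against SSDS-GFP. In SSDS-GFP against Control it called 2 (Dlx5 among them), beside 527 of all genes. In the 4-group test it called 3 (Dlx5 and Sst among them), beside 755 of all genes. Of all tested genes 50.3% were higher in CSDS than in Control, 52% in SSDS-shACOT12 than in SSDS-GFP and 50.8% in SSDS-GFP than in Control. Of 23 tested genes of other interneuron classes and lineages, 21 were higher in CSDS than in Control (median log2 fold change 0.28). In SSDS-GFP 21 were higher than in Control (median 0.22), with the same Control libraries. In SSDS-shACOT12 13 were higher than in SSDS-GFP (median 0.02). Of 5 other GABA-A subunits tested, 1 was higher in CSDS than in Control, 2 in SSDS-shACOT12 than in SSDS-GFP and 1 in SSDS-GFP than in Control. Of 13 inhibitory synapse proteins, 7 were higher in CSDS than in Control, 10 in SSDS-shACOT12 than in SSDS-GFP and 5 in SSDS-GFP than in Control. The 6 genes of GABA transport, supply and breakdown were mostly lower, with 1 higher in CSDS than in Control, 2 in SSDS-shACOT12 than in SSDS-GFP and 1 in SSDS-GFP than in Control. Of the 2 chloride transporters, 0 were higher in CSDS than in Control, 1 in SSDS-shACOT12 than in SSDS-GFP and 1 in SSDS-GFP than in Control.

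Sst, the somatostatin gene of dendrite-targeting interneurons, had 189.7, 242 and 168 CPM in CSDS, 254, 301 and 317 CPM in SSDS-shACOT12, 229.7, 149 and 332 CPM in SSDS-GFP, and 128, 165 and 124 CPM in Control. CSDS lay above Control without overlap (log2 fold change 0.52 ± 0.24 SE, edgeR adjusted p = 0.849), and SSDS-GFP 2 lay within the Control range (0.77 ± 0.24 SE for SSDS-GFP against Control, adjusted p = 0.174). Vip, a peptide of interneurons that target other interneurons, had 21.1, 15.4 and 19.4 CPM in CSDS against 15.3, 12.9 and 9.04 CPM in Control, at a log2 fold change of 0.59 ± 0.24 SE (edgeR adjusted p = 0.849).

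In CSDS against Control the other genes with the smallest p were Kit (log2 fold change 0.70), Kctd16 (-0.79), Dlx5 (0.81), Gabrr2 (-2.10) and Dlx2 (0.69), each with an edgeR adjusted p of 0.849. Without CSDS 2 the log2 fold changes of Dlx5 and Dlx2 were 0.52 and 0.46, without Control 2 that of Gabrr2 was -0.91, and without Control 3 that of Kctd16 was -0.52. Kit passed the test with no filter on low counts (adjusted p = 0.0269), and its adjusted p ranged up to 1.00 over the other alternatives. Kctd16 is an auxiliary subunit of GABA-B receptors, and Gabrr2 was near the limit of detection, at 0.0595 to 2.99 CPM. In SSDS-GFP against Control they included Dlx5 (1.22, adjusted p = 0.116), Sst, Tac1 (1.07, adjusted p = 0.174), Slitrk3 (-0.38, adjusted p = 0.190) and Kit (0.53, adjusted p = 0.276). Dlx5, a homeobox gene of the interneuron lineage, had a DESeq2 adjusted p of 0.0132 in that comparison.

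In SSDS-shACOT12 against SSDS-GFP the genes with the smallest p included Npy (log2 fold change 1.78), Iqsec3 (0.36), Insyn1 (0.37), Kcnc1 (0.23) and Lhfpl4 (0.25), each with an edgeR adjusted p of 0.803. Npy, a peptide of several interneuron classes, had 64.6, 59.5 and 392 CPM in SSDS-shACOT12 against 56.7, 39.6 and 53.9 CPM in SSDS-GFP, so that SSDS-shACOT12 3 stood far above the rest, and without it the log2 fold change was 0.32. Without SSDS-shACOT12 2 it was 2.18 (adjusted p = 0.0267).

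Slc12a5, the chloride exporter KCC2 that sets the driving force of GABA-A currents, had log2 fold changes between -0.03 and 0.07 in the 3 comparisons, with edgeR adjusted p between 0.886 and 0.994.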

How the data were processed

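Libraries were made from ventral hippocampus RNA with a NEBNext Ultra kit, per the labels' protocols. The submitters' processing notes name HISAT2 2.0.5, featureCounts 1.5.0-p3, DESeq2 without a version, and mm10. The authors deposited raw counts per gene and, separately, FPKM scaled by the authors per gene length and library size. Gene length, another unit, is in bases per the file headers. Annotation release and strand setting are not given in the sources used here.

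From the counts, filterByExpr in edgeR 4.0.16 (R 4.3.3; minimum count 10, total 15) kept 16915 of 54532 genes. CPM used TMM scaling. All 12 libraries entered 1 quasi-likelihood fit on group alone; tests were 2-sided, with Benjamini-Hochberg adjustment over every tested gene and a threshold of 0.05. The code was first tested on simulated data. FPKM served only to set levels of genes side by side. No 2 libraries held identical counts. GC content is that of the longest GENCODE M21 transcript of a gene.

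The alternatives were scaling by DESeq2 size factors, the DESeq2 1.42.0 test, no filter, at least 50 counts in 3 libraries, fits on single comparisons, a replicate block, single libraries left out, the gene length trend removed by lowess (span 0.3), and the 3 libraries that stood apart left out. Removing the GC trend, and blocking within the SSDS libraries alone, were chosen after seeing the data. The meaning of a shared replicate number is not in the labels. Deviations from the group mean in same-numbered SSDS-shACOT12 and SSDS-GFP libraries correlated over genes at 0.230, 0.470 and 0.386, above the bound of 0.1. These 2 groups were taken as paired in the comparisons of pairs and in the block within the SSDS libraries. Differently numbered libraries of these groups lay between -0.432 and -0.00875. Elsewhere some differently numbered libraries also passed the bound, up to 0.331 for SSDS-GFP 3 and Control 2, so it does not establish pairing. Apart from ranges over alternatives, fold changes and p-values of single genes come from fits on group alone.

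Members and lists were chosen with earlier results of these data known. Every library is given for members with an unadjusted p under 0.05 in any test and for Gad1, Gad2, Slc32a1, Pvalb, Gabbr1 and Gabrd. Erbb4, Gabrg1, Nlgn2, Gabra2 and Dlx6os1 were chosen for more detail after their values were seen. Of the other GABA genes, the rule names the 6 with the smallest p in each comparison and a short list that includes Sst, Vip and Slc12a5; a few of these genes are not reported here.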

Additional observations from a re-analysis of the deposited data

How the results depend on the processing

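The count of members called stayed at 0 in CSDS against Control under all 9 alternatives and with any library left out. With no filter on low counts it was 1 in SSDS-GFP against Control (Calb2) and 2 in the 4-group test (Calb2 and Gabra4). Those tests called 608 and 1457 of 32777 tested genes. Without SSDS-GFP 3, SSDS-shACOT12 1 and SSDS-shACOT12 3 the interneuron median in SSDS-shACOT12 against SSDS-GFP was 0.54, and the log2 fold change of Insyn1 there was -0.018. In that fit the lone SSDS-shACOT12 library is assumed to vary like the others. With single libraries left out, members called ranged from 0 to 2 in SSDS-shACOT12 against SSDS-GFP and from 0 to 2 in the 4-group test. Both were 2 without SSDS-shACOT12 2 (Erbb4 and Gabrg1), in a fit that called 985 and 2181 of 17292 tested genes. Over the single libraries left out, the receptor median in SSDS-shACOT12 against SSDS-GFP ranged from -0.36 to -0.024, lowest without SSDS-shACOT12 2. The interneuron median there ranged from -0.04 to 0.22. The receptor median in SSDS-GFP against Control was 0.05 with the length trend removed. The cause of these shifts was not tested. The replicate block changed no call of a member, with 0 called in each test and 0 called on the 6 SSDS libraries alone. On those 6 libraries with the block, 3 members had an unadjusted p under 0.05 by edgeR, beside 1434 of 16075 tested genes. Over all genes the counts called in CSDS against Control, where 0 were called above, were 6 by DESeq2, 132 with no filter, 84 on the 6 libraries compared and 30 without the 3 libraries that stood apart. In SSDS-shACOT12 against SSDS-GFP, where 0 were called, they were 108 with no filter, 20 without those 3 libraries and 985 without SSDS-shACOT12 2. In SSDS-GFP against Control, where 16 were called, they were 527 by DESeq2, 34 on the 6 libraries compared, 80 with the GC trend removed, 216 without those 3 libraries, 111 without SSDS-shACOT12 2 and 9 with the replicate block. In the 4-group test, where 15 were called, they were 755 by DESeq2, 30 with the GC trend removed, 474 without those 3 libraries, 2181 without SSDS-shACOT12 2 and 8 with the replicate block.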

Other observations

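The balance of both GABA-producing enzymes was looked at after the values had been seen. The ratio of Gad2 to Gad1 by FPKM was 0.544, 0.526 and 0.643 in SSDS-shACOT12 against 0.469, 0.468 and 0.502 in SSDS-GFP, without overlap of the groups. The mean was 0.571 ± 0.063 in SSDS-shACOT12 and 0.480 ± 0.019 in SSDS-GFP (SD, n = 3 each), with an exact 2-sided permutation p of 0.1, the smallest that 3 against 3 libraries allow, and a Benjamini-Hochberg adjusted value of 0.3 over 3 comparisons. The ratio was higher in SSDS-shACOT12 in 3 of 3 same-numbered pairs, with an exact 2-sided sign-flip permutation p of 0.25 over pairs, the smallest that 3 pairs allow. The ratio was 0.417, 0.445 and 0.449 in CSDS against 0.414, 0.427 and 0.511 in Control, with an exact permutation p of 0.9. For SSDS-GFP against Control the exact permutation p was 0.5.

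Across the 26 members, the deviation of a library went with transcript GC content at a Spearman correlation of 0.78 in SSDS-shACOT12 1, 0.66 in SSDS-shACOT12 3 and 0.61 in SSDS-GFP 3, and of -0.73 in SSDS-GFP 2 and -0.69 in CSDS 2. It lay between -0.46 and 0.06 in the other 7 libraries. These are given as a description, over genes that share a library.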
